A study of Mus musculus with 36 samples.

Results

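Transcripts of the respiratory chain, encoded in the nucleus and in mitochondrial DNA, were compared across 36 poly(A) RNA libraries of mouse bone marrow-derived macrophages. Members were taken by name. They were the protein-coding genes whose names begin with Nduf followed by a, b, c, s or v and a digit, the Sdh genes a to d, names beginning with Uqcr, Cox4 to Cox8 or Atp5, and the mt- genes for subunits. The rule gave 98 of the 54532 genes in the table, of which 22046 were protein-coding. Of the 98 members, 85 are nuclear (35 in complex I, 4 in complex II, 8 in complex III, 20 in complex IV and 18 in complex V) and 13 lie in mitochondrial DNA (7 in complex I, 1 in complex III, 3 in complex IV and 2 in complex V). Assembly factors, electron carriers and other mitochondrial genes were kept in lists of their own.

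Complexes I to IV lie in the inner mitochondrial membrane and pass electrons from NADH and succinate to oxygen. Complex V uses the resulting proton gradient across that membrane to make ATP. Complex II is encoded by the nucleus alone, whereas the other complexes join nuclear subunits with subunits made inside mitochondria. Macrophages exposed to lipopolysaccharide are known to shift from oxidative phosphorylation toward glycolysis.

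The study asked how a small molecule that binds the PASB domain of the clock protein BMAL1, called Core Circadian Modulator (CCM), acts on macrophages with and without Bmal1. Macrophages were grown from marrow of C57BL/6 females aged 13 to 17 weeks for 7 days with MCSF. WT cells came from Bmal1 flox/flox littermates without Cre (3 replicates per condition), and KO cells from LysM-Cre;Bmal1 flox/flox mice (6 replicates per condition). Treatment lasted 6 h and was DMSO alone (vehicle), CCM at 100 µM, LPS at 100 nM, or both compounds together. This gave WT vehicle, WT CCM, WT LPS and WT LPS+CCM with 3 libraries each, and KO vehicle, KO CCM, KO LPS and KO LPS+CCM with 6 each.

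Arntl, the gene name for Bmal1, was read in each library as a check of the labels, in counts scaled to library size (CPM). Arntl was at 7.27, 8.61 and 9.76 CPM in WT vehicle, 9.13, 8.55 and 11.2 in WT CCM, 10.2, 8.02 and 9.30 in WT LPS, and 12.9, 11.5 and 12.5 in WT LPS+CCM. The lowest, median and highest values were 2.97, 7.59 and 7.74 CPM in KO vehicle, 5.01, 7.29 and 10.7 in KO CCM, 2.13, 7.19 and 9.03 in KO LPS, and 3.94, 6.97 and 9.32 in KO LPS+CCM. The lowest KO library was replicate 6 in each condition, and replicate 2 was the highest with CCM, LPS and LPS+CCM. KO and WT values overlapped except with LPS+CCM, so gene-level Arntl counts did not separate the genotypes in the other conditions. Deletion of a single exon can leave counts over the rest of a gene, and exon counts were not used here.

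LysM-Cre is an insertion in Lyz2, which codes for lysozyme. Lyz2 was at 10417.5 to 15053 CPM in the 12 WT libraries and at 5913 to 8523 in KO replicates 1, 3, 4 and 5, apart from KO LPS+CCM replicate 5 at 10184.5. KO replicate 2 had 13212, 14219, 11047 and 14661 CPM with vehicle, CCM, LPS and LPS+CCM, within the WT range, and KO replicate 6 had 9813, 8628, 9458 and 8135. Lyz2 was singled out after its values were seen. Many results in KO cells are therefore also given without these replicates.

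KO replicate 6 stood apart from the other libraries in all 4 conditions. Counts on mitochondrial members made up 0.327%, 0.195%, 0.352% and 0.238% of its counts in KO vehicle, KO CCM, KO LPS and KO LPS+CCM (95% Wilson intervals 0.324 to 0.330, 0.193 to 0.197, 0.350 to 0.355 and 0.236 to 0.240, which cover counting error only). KO LPS+CCM replicate 5 was at 0.644% (0.641 to 0.648). Nuclear members summed to 15162, 16978, 15213 and 16524 CPM in the 4 libraries of replicate 6, against 6001 to 6932 in WT vehicle.

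**Figure D1:**
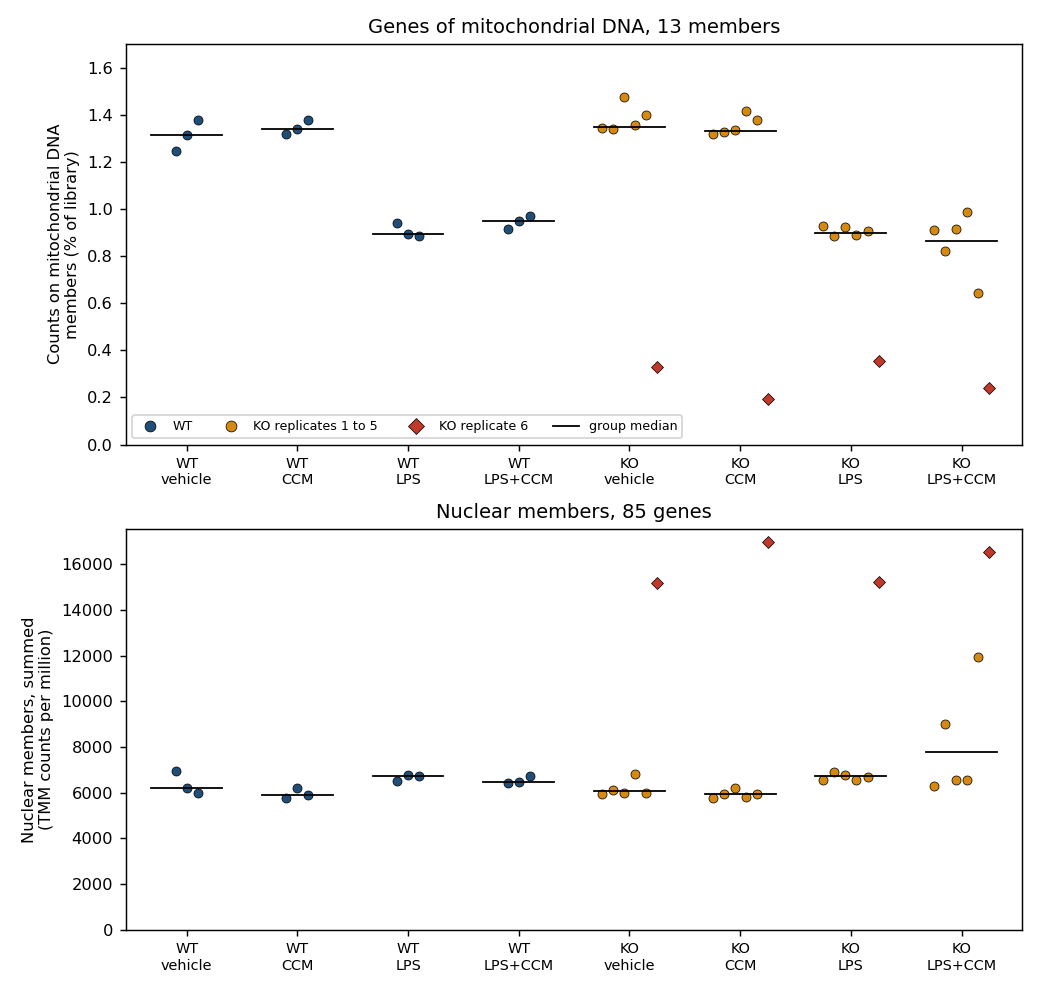
Share of counts on the 13 mitochondrial members (top, percent) and summed CPM of the 85 nuclear members (bottom) in each of the 36 libraries. WT libraries are blue, KO replicates 1 to 5 orange and KO replicate 6 red diamonds, and lines give group medians. Replicate 6 lies below the other KO libraries at the top and above them at the bottom.

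The deviation of replicate 6 ran with gene length. Deviations were taken from the median of all 6 KO libraries of a condition, replicate 6 included. In replicate 6 the median log2 deviation of the 315 other protein-coding genes under 1000 bases was 1.12, 1.34, 1.16 and 0.98 (vehicle, CCM, LPS, LPS+CCM). For the 7209 genes of the longest class it was -0.47, -0.58, -0.38 and -0.32. Nuclear members, 51 of whose 80 kept genes are under 2000 bases, deviated by 1.41, 1.58, 1.32 and 1.23, and mitochondrial members by -0.96, -1.55, -0.19 and -0.94. In KO LPS+CCM replicate 5 the deviation was 0.60 for genes under 1000 bases and 0.77 for nuclear members. For mitochondrial members the median over genes was 0.15, opposite in sign to replicate 6. Summed mitochondrial CPM of that library was 7846, below the 9317 to 10399 of replicates 1 to 4, as it was in replicate 6. In KO LPS+CCM replicate 2 the deviation was 0.20 for genes under 1000 bases, 0.27 for nuclear members and 0.11 for mitochondrial members. Nuclear members summed to 9030 CPM there, against 6281 to 6561 in replicates 1, 3 and 4. With LPS+CCM the group median itself lay above these 3 replicates, which deviated by -0.31, -0.30 and -0.26 for genes under 1000 bases. Deviations of replicates 2, 5 and 6 in that condition are therefore smaller than they would be from replicates 1, 3 and 4 alone.

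**Figure D2:**
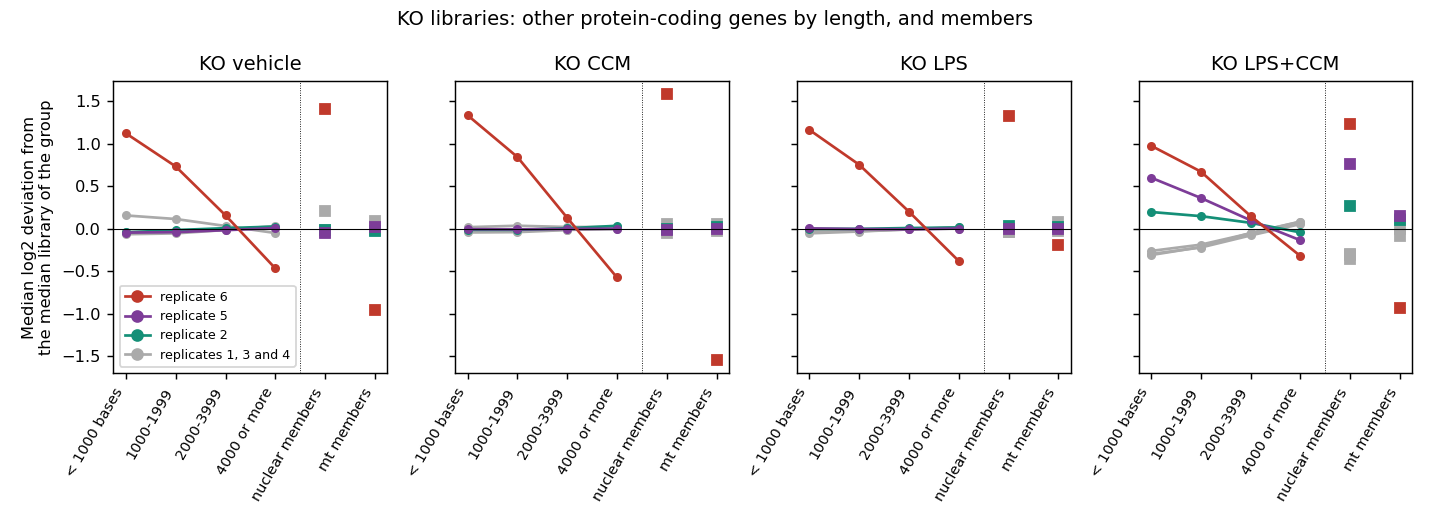
Median log2 deviation of each KO library from the median of its group, for other protein-coding genes by length class and for nuclear and mitochondrial members. Values for short genes and nuclear members move together in replicate 6 and, with LPS+CCM, in replicates 5 and 2.

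Marker lists for 8 cell types were read in every library. All 8 macrophage markers were kept, led by Lyz2, and summed to 11548 to 23179.5 CPM. Neutrophil markers (7 of 8 kept, S100a9 most abundant) summed to 425 to 1201 CPM, and the 4 libraries of KO replicate 6 had 1155, 1201, 1194 and 1147 against at most 1115 elsewhere. Fibroblast markers (4 of 4, led by Col1a1) reached 293 to 1648 CPM, with the highest sum in KO LPS replicate 5. Sums were 1.20 to 10.1 CPM for B cells (3 of 4 kept, led by Cd79b), 0.0559 to 3.27 for T cells (1 of 3, Cd3d) and 1.15 to 11.6 for erythroid cells (2 of 5, led by Hba-a1). Sums were 4.60 to 19.3 CPM for mast cells and basophils (3 of 3, led by Mcpt8) and 0.714 to 2.99 for dendritic cells (2 of 3, led by Zbtb46). The highest sums for B, T, erythroid, mast and basophil markers were all in replicate 6, and none of the listed markers was at 0 in all 36 libraries. Bulk counts cannot tell fewer cells from less RNA per cell, and a part of other cell types in the values below was not tested.

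Per kilobase of gene length, the mitochondrial members spanned a wide range. The mean over conditions was highest for mt-Co1, the catalytic subunit of complex IV, at 3532 CPM per kilobase. The complex I genes mt-Nd1, mt-Nd6, mt-Nd5, mt-Nd2 and mt-Nd4 had 1060.5, 717, 518, 497 and 454, and mt-Cytb of complex III had 1018. Values were 57.8 for mt-Co2, 20.1 for mt-Co3, 13.3 for mt-Atp6, 11.2 for mt-Nd3, 5.03 for mt-Nd4l and 0.974 for mt-Atp8. Apart from mt-Atp8, the genes with low values have near-identical copies among the annotated genes of the nuclear genome. Sequence outside annotated transcripts was not compared, so a copy of mt-Atp8 without an annotation would not be seen. Of all 50-base windows, 100% were shared with another annotated gene for mt-Co2, 99.9% for mt-Co3, 99.5% for mt-Atp6, 98.8% for mt-Nd4l and 98% for mt-Nd3, against 62.2% for mt-Nd4 and 51.1% for mt-Co1. No window was shared for mt-Nd1, mt-Nd6, mt-Cytb and mt-Atp8, and mt-Nd2 and mt-Nd5 shared 8.19% and 7.61%. The copies on chromosome 1 held counts of their own: Gm28661 had 28519 over all libraries beside 30417 on mt-Co2, and Gm10925 had 7344 beside 6904 on mt-Atp6. The values of mt-Co2, mt-Co3, mt-Atp6, mt-Nd3 and mt-Nd4l are thus those of reads that could be assigned, and mt-Nd5 and mt-Nd6 overlap on opposite strands in a library whose strand setting was not stated.

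As a mean over the 8 conditions, the most abundant nuclear members of each complex were Ndufa2 (complex I, 162 CPM per kilobase), Sdhd (complex II, 79.2), Uqcr10 (complex III, 101.5), Cox8a (complex IV, 322) and Atp5b (complex V, 164). Atp5a1 lay close to Atp5b at 161.7, and the order of this pair differed between conditions. The other complex II genes Sdha, Sdhb and Sdhc, which code for the flavoprotein, the iron-sulfur subunit and a membrane anchor, had 51.4, 49.9 and 30.6. In WT vehicle the summed levels were 1135 ± 118 CPM per kilobase (mean ± SD) for nuclear and 3769 ± 106 for mitochondrial genes of complex I, and 205 ± 9.45 for complex II. They were 445 ± 38.6 and 1263 ± 14.0 for complex III, 1445.5 ± 155 and 3724 ± 172 for complex IV, and 879.8 ± 63.1 and 15.9 ± 1.66 for complex V, nuclear first.

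Tissue-restricted isoforms of complex IV were far below their ubiquitous partners. Per kilobase, Cox4i2 had 0.248 CPM beside 241 for Cox4i1, Cox6a2 2.34 beside 304 for Cox6a1, Cox6b2 0.496 beside 208 for Cox6b1, and Cox7a1 2.70 beside 87.4 for Cox7a2. Cox8b had 0.141 beside 322 for Cox8a, and Ndufa4l2, a hypoxia-induced relative of Ndufa4, had 0.153 beside 68.6. Cox7b2, Cox8c and a second gene named Atp5o had 0 counts among 744229298, so a level of 0.00403 CPM (3 counts in all) could have been missed, and Cox7b, the partner of Cox7b2, had 55.7 CPM per kilobase. Cox6a2 overlaps Itgad, and counts from that gene were not told apart.

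Promoter sequence from RefSeq on GRCm38.p6 was matched to 66 of the 85 nuclear members, from 250 bases before the transcription start to 50 bases after it. The core motif of NRF1, GCGCATGC, was found on either strand in 10 of the 66 (15.2%), against 3.05% of all 27025 genes with a window. CCGGAAG, bound by GABP and other ETS factors, was in 16 (24.2% against 9.93%), AAGATGGCG, bound by YY1, in 7 (10.6% against 1.64%), and TCAAGGTCA, bound by ERR alpha, in 2 (3.03% against 0.466%). The E-box CACGTG, which BMAL1 with CLOCK binds, was in 5 (7.58% against 8.09%), namely Ndufa7, Ndufv1, Atp5g3, Atp5l and Atp5g1, a set listed after its values were seen. At least 1 motif was found for 14 of 31 members of complex I, 2 of 3 of complex II, 3 of 5 of complex III, 3 of 14 of complex IV and 9 of 13 of complex V. No motif contains another, and a match describes sequence only.

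The windows below, 5′ to 3′ on the strand of the gene with motif letters in capitals, belong to genes whose levels are described next. Atp5b (chr10:128083057-128083356, plus strand) holds no motif, Ndufs4 (chr13:114388045-114388344, minus) that of YY1, and Sdhd (chr9:50603800-50604099, minus) those of GABP and ERR alpha. Uqcr11 (chr10:80406772-80407071, minus) holds those of NRF1 and GABP, and Atp5g3 (chr2:73911277-73911576, minus) an E-box and the ERR alpha motif. Uqcr11 and Atp5g3 were chosen after their values were seen, to show NRF1 and an E-box in genes called with LPS. AA467197 (chr2:122637637-122637936, plus) is Nmes1, whose product takes the place of NDUFA4 in complex IV, and its window holds an E-box.
Atp5b: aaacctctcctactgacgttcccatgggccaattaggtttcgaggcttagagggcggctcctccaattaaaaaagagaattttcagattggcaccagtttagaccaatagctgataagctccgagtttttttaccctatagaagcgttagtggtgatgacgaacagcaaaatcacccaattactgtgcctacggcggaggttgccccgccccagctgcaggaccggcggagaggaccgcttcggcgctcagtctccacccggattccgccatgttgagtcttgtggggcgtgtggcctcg
Ndufs4: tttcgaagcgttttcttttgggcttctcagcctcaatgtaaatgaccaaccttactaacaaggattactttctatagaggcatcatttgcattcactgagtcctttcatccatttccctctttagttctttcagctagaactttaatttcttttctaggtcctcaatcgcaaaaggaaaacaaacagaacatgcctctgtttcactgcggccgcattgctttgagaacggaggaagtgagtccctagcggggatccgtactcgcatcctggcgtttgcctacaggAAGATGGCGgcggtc
Sdhd: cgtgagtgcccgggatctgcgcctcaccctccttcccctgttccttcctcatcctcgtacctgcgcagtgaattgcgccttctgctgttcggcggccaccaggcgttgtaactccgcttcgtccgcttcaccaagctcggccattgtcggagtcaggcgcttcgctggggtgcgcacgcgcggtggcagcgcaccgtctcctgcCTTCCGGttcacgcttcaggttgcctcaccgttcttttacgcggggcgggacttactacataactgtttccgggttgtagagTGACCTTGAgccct
Uqcr11: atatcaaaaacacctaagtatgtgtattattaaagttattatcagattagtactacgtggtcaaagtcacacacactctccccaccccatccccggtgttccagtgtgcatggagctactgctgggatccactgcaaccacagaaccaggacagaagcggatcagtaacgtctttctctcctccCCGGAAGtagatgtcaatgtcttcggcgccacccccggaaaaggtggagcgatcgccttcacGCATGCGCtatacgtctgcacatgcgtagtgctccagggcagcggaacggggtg
Atp5g3: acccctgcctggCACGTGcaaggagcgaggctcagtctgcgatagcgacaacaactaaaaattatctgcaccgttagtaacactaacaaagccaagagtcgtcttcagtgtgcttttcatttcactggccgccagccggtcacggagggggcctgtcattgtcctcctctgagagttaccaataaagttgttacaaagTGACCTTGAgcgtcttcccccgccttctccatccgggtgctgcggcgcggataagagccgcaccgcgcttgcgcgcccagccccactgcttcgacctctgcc
AA467197: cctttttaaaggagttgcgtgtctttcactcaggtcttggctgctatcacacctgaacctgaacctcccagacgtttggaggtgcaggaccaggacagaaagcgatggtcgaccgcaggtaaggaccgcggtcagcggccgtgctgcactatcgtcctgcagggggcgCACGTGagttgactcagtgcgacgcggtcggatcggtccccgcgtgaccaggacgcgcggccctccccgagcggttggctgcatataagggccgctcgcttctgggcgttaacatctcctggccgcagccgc

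The mitochondrial share of raw library totals was lower with LPS in WT cells. It was 1.25%, 1.31% and 1.38% in WT vehicle (mean 1.31 ± 0.0652) and 0.940%, 0.893% and 0.885% in WT LPS (0.906 ± 0.0297), with no overlap. WT CCM had 1.32%, 1.34% and 1.38%, and WT LPS+CCM 0.916%, 0.951% and 0.970%. In KO cells the lowest, median and highest shares were 0.327%, 1.35% and 1.48% with vehicle and 0.352%, 0.900% and 0.929% with LPS. Without replicate 6 the KO means were 1.38 ± 0.0580 (vehicle), 1.35 ± 0.0412 (CCM), 0.907 ± 0.0197 (LPS) and 0.855 ± 0.131 (LPS+CCM). Marker sums also differed between WT vehicle and WT LPS without overlap, at 647 to 699.9 and 514 to 562 CPM for neutrophil, 3.31 to 4.19 and 2.03 to 3.07 for B cell, and 10.3 to 10.4 and 12.8 to 13.3 for mast cell and basophil markers, a difference not tested. Nuclear members held 0.749 ± 0.0426% of counts in WT vehicle and 0.592 ± 0.0122% in WT LPS, so both shares were lower on this scale. On the TMM scale the difference was smaller, with summed mitochondrial CPM at 10857 to 11612 in WT vehicle and 9987 to 10604 in WT LPS. The ratio of mitochondrial to nuclear member counts was 1.57, 1.77 and 1.94 in WT vehicle and 1.62, 1.49 and 1.48 in WT LPS, which overlap. In KO replicates 1 to 5 it was 1.66 to 2.13 with vehicle and 1.49 to 1.60 with LPS, and replicate 6 had 0.234 and 0.309.

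Of the 91 members tested in WT cells, 34 were called with LPS against vehicle (edgeR, adjusted p of at most 0.05), 12 higher and 22 lower, or 37.4% where 63.0% of all 14501 genes tested were called. Adjusted over the list alone, 26 were called, 10 higher and 16 lower, and DESeq2 called 33, where it called 59.99% of all genes. Nuclear members split in direction, with 12 of 79 higher and 14 lower (32.9%) and a median log2 fold change of -0.03, beside -0.05 for all genes tested. Called mitochondrial members were all lower, with 0 of 12 higher and 8 lower (66.7%) and a median of -0.37. Over the 5 tested mitochondrial genes that share under 10% of their windows the median was -0.38. With library totals in place of TMM factors the all-gene median went from -0.05 to -0.46, and 1 member was called higher and 80 lower, so directions of nuclear genes are relative to the scaling. All 36 libraries in a single fit left 3 members called, namely Atp5b and Uqcrc2 higher and Atp5s lower. In that fit 35.9% of 15720 genes were called.

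By complex, nuclear genes with LPS in WT cells were called as follows. In complex I, 2 of 35 were higher and 9 lower (median -0.09), and in complex II 0 of 4 were called (median -0.05), by edgeR, with 0 at an unadjusted p under 0.05. In complex III, 3 of 8 were higher and 1 lower (median 0.13), in complex IV 2 of 15 higher and 2 lower (0.12), and in complex V 5 of 17 higher and 2 lower (0.04). Among mitochondrial genes, 5 of 7 in complex I were lower (-0.37), as were mt-Cytb in complex III, 1 of 3 in complex IV (-0.17) and the single one tested in complex V. Summed nuclear CPM of complex V was 2164 to 2399.7 in WT vehicle and 2540.1 to 2658 in WT LPS, with no overlap. The sums for nuclear complex I (1397 to 1673 and 1386 to 1433), complex II (503 to 539 and 492 to 508), complex III (556 to 637 and 635 to 641) and complex IV (1380.1 to 1684 and 1474 to 1553) overlapped. Mitochondrial sums were 3939 to 4186 and 3088.5 to 3450 for complex I, 5446 to 5975 and 5738 to 6065 for complex IV, and 8.86 to 11.4 and 6.70 to 8.44 for complex V.

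**Figure D3:**
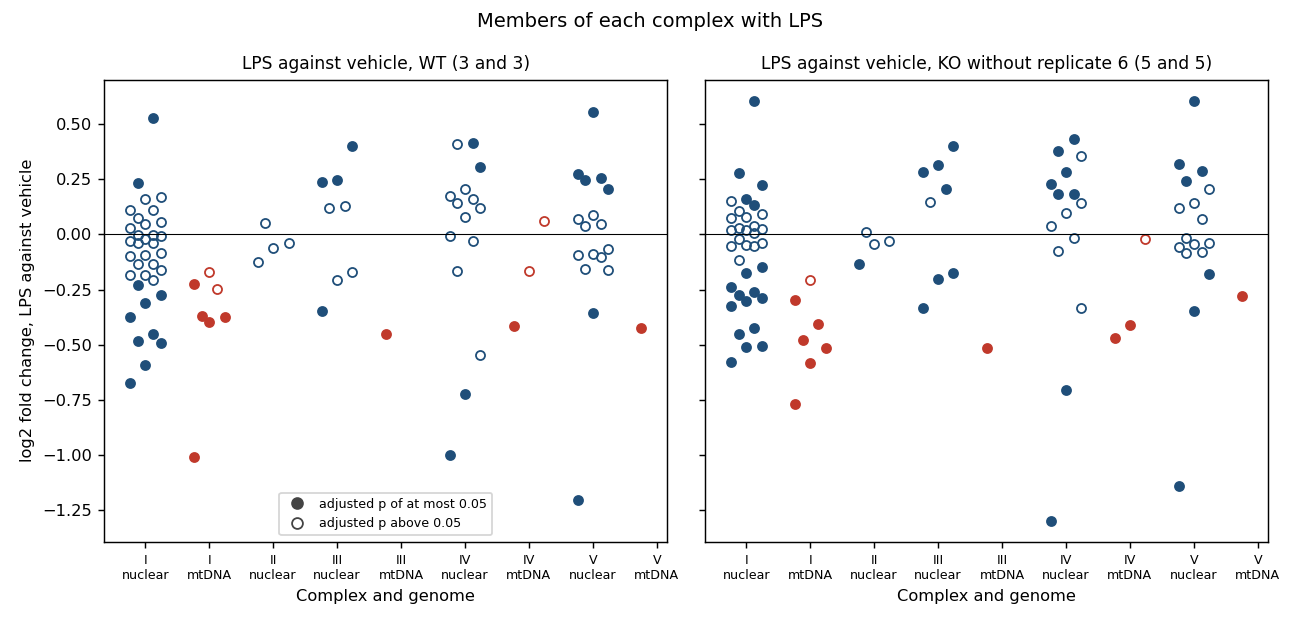
Log2 fold change with LPS of each tested member by complex and genome, in WT cells (left) and in KO cells without replicate 6 (right). Filled points were called by edgeR. Mitochondrial genes lie at or below 0 apart from mt-Co1 in WT cells, and nuclear genes lie on both sides.

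Among mitochondrial genes, mt-Cytb was at 1462, 1430.3 and 1442 CPM in WT vehicle and 1080.2, 1073 and 1009 in WT LPS. It fell in 3 of 3 pairs without overlap (log2 fold change -0.45, SE 0.0553, adjusted p 5.35e-05, edgeR). Per-library CPM for mt-Nd2 was 598, 608 and 636 with vehicle and 495, 473 and 447 with LPS, and for mt-Nd4 764, 701 and 730.4 and then 589.9, 556 and 546. Both fell without overlap (-0.38, SE 0.0606, adjusted p 0.000365 and -0.37, SE 0.0588, adjusted p 0.000324), and mt-Nd4 shares 62.2% of its windows with other genes. The values of mt-Nd1 were 1197, 1168 and 1142 CPM and then 1048, 1015 and 930.2, and those of mt-Nd6 were 474, 365 and 422 and then 353, 313 and 288. These genes fell as well, with no overlap (-0.22, SE 0.0610, adjusted p 0.00902 for mt-Nd1 and -0.40, SE 0.102, adjusted p 0.00645 for mt-Nd6). Called with nearly all windows shared were mt-Co3 (-0.42, SE 0.0961, adjusted p 0.00356), mt-Atp6 (-0.43, SE 0.147, adjusted p 0.0279) and mt-Nd3 (-1.01, SE 0.390, adjusted p 0.0450), the last with values of 2.72, 6.71 and 4.95 CPM against 1.65, 1.64 and 3.69, which overlap. The call of mt-Nd3 was lost in 6 of 13 other settings and that of mt-Atp6 in 5.

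The most abundant member, mt-Co1, was not called. It was at 5377, 5568 and 5914 CPM in WT vehicle and 6018, 5680.2 and 5832 in WT LPS, and the groups overlapped (0.06, adjusted p 0.435). With library totals in place of TMM its value turned to -0.35. mt-Nd5 (-0.25, adjusted p 0.0708), mt-Nd4l (-0.17) and mt-Co2 (-0.17) were not called, and mt-Atp8, with 147 counts in all 36 libraries, was too low to test. A p that misses the threshold does not show that these genes did not differ.

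The catalytic beta subunit of ATP synthase, Atp5b, was at 557, 556 and 557 CPM in WT vehicle and 793, 825 and 824 in WT LPS. It rose in 3 of 3 pairs with no overlap (0.55, SE 0.0518, adjusted p 7.15e-06). The alpha subunit Atp5a1 rose by 0.27 (SE 0.0519, adjusted p 0.00109). Ndufs4, an accessory subunit of the NADH-oxidizing arm of complex I, was at 33.7, 27.5 and 27.9 CPM and then 39.2, 44.3 and 44.2, without overlap (0.53, SE 0.0907, adjusted p 0.000567). Uqcrc2, a core protein of complex III, had 70.7, 69.5 and 65.2 CPM with vehicle and 91.2, 91.3 and 87.6 with LPS (0.40, SE 0.0570, adjusted p 0.000150). Cox5a of complex IV had 75.8, 66.1 and 63.4 and then 83.8, 96.2 and 92.0 (0.41, SE 0.0804, adjusted p 0.00126), and both genes rose without overlap. Cox7a2, the ubiquitous form of a small complex IV subunit, rose by 0.31 (SE 0.0792, adjusted p 0.00676). Uqcrc2 overlaps Pdzd9, and Atp5b holds Snord59a and Mir677 within its span. With library totals as the scale Atp5b was at 0.14 (adjusted p 0.0307), the Ndufs4 and Cox5a calls were lost, and Uqcrc2, Atp5a1 and Cox7a2 turned to -0.010, -0.14 and -0.10.

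Cox7a2l, grouped here with complex IV by its name, was at 203, 178 and 172 CPM in WT vehicle and 107, 112 and 115 in WT LPS. It fell in 3 of 3 pairs without overlap (-0.72, SE 0.0688, adjusted p 8.14e-06). Ndufb11, in the membrane arm of complex I, was at 62.0, 53.0 and 49.3 CPM and then 36.5, 36.1 and 36.1, also without overlap (-0.59, SE 0.0837, adjusted p 0.000148). Atp5s, or coupling factor B, had 4.96, 3.75 and 4.69 CPM with vehicle and 1.89, 2.16 and 1.76 with LPS (-1.20, SE 0.201, adjusted p 0.000462, lower in 3 of 3 pairs). Ndufa12, at 14.1, 26.1 and 11.998 CPM and then 11.3, 10.5 and 10.6, was called (-0.67, SE 0.250, adjusted p 0.0386), yet without vehicle replicate 2 its value was -0.25 and the call was lost. The testis isoform Cox6b2 had 0.624, 0.706 and 0.537 CPM and then 0.236, 0.345 and 0.321 (-0.999, SE 0.369, adjusted p 0.0378), a call lost in 10 of 13 other settings. Uqcr11, a small complex III subunit, fell (-0.35, SE 0.0900, adjusted p 0.00683) and Atp5g3, a c subunit of ATP synthase, rose (0.26, SE 0.0681, adjusted p 0.00770), both named after their values were seen. Cox7a2l, Ndufb11 and Ndufa12 share 13.8%, 17.5% and 17.7% of their 50-base windows with other genes, and Ndufb11 overlaps Rbm10.

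No gene of complex II was called with LPS in WT cells. Sdha was at 221, 209 and 223 CPM in WT vehicle and 214, 209.6 and 209.7 in WT LPS, Sdhb at 116, 103 and 94.2 and then 101, 101 and 96.5, Sdhc at 107, 104 and 99.2 and then 88.2, 97.1 and 97.7, and Sdhd at 94.4, 90.1 and 86.7 and then 88.1, 99.9 and 92.2. Log2 fold changes were -0.04, -0.06, -0.13 and 0.05. Sdhc had the lowest adjusted p of the 4 genes, 0.105, and did not overlap. With library totals Sdhd turned to -0.36. Of the isoform pairs, Cox6a2 (0.41, adjusted p 0.164) and Cox7a1 (-0.55, adjusted p 0.144) were not called, nor were Cox4i1 (-0.03), Cox7b (-0.01), Cox8a (0.08), Cox6b1 (0.17) and Cox6a1 (0.21).

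In KO cells LPS gave 6 called members of 91 with all replicates, 2 higher and 4 lower, or 6.59% where 47.1% of all 13648 genes were called (edgeR). Adjusted over the list alone 1 was called. Without replicate 6, a setting planned as 1 of the leave-out alternatives, 51 were called, 19 higher and 32 lower, or 56.0% where 69.4% of 13844 genes were called, and 51 adjusted over the list alone. With a replicate block, since the correlation of replicates with the same number was 0.299 to 0.829 in these libraries, 51 were called (23 higher and 28 lower, with 71.6% of all genes called). Without replicates 2 and 6, chosen after seeing the data, 43 were called (19 higher and 24 lower, with 64.8% of all genes called). The 6 genes called with all replicates were Uqcrc2 (0.43, SE 0.107, adjusted p 0.00455) and Atp5b (0.57, SE 0.149, adjusted p 0.00641), higher in 6 of 6 pairs, and Atp5s, Cox6b2, mt-Nd3 and mt-Nd6, lower. Atp5s was at -1.14 (SE 0.154, adjusted p 3.77e-05), lower in 6 of 6 pairs with no overlap, and was called in all 15 other settings. With library totals Atp5b (0.20, adjusted p 0.0769) and Uqcrc2 (0.039, adjusted p 0.850) were not called, which left 0 members higher. Of the 15 other settings, the call was lost in 5 for mt-Nd6, 4 for mt-Nd3 and 2 for Cox6b2.

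By genome, the calls in KO cells depended on replicate 6 and on the pairing. Without replicate 6, 19 of 79 nuclear members were higher and 22 lower (51.9%, median 0.01), and 0 of 12 mitochondrial members were higher and 10 lower (83.3%, median -0.44), beside an all-gene median of -0.06. With all 6 replicates 2 of 79 nuclear members were higher and 2 lower (5.06%, median 0.00), and 0 of 12 mitochondrial members were higher and 2 lower (16.7%, median -0.36). With all 6 replicates and a replicate block, 23 nuclear members were higher and 21 lower (55.7%, median -0.02), and 0 mitochondrial members were higher and 7 lower (58.3%, median -0.33). Within pairs, the mitochondrial median was -0.50 to -0.27 in replicates 1 to 5 and 0.27 in replicate 6. By complex without replicate 6, nuclear genes of complex I were 5 higher and 13 lower of 35, and all genes were 4 and 4 of 9 in complex III, 6 and 4 of 18 in complex IV and 4 and 4 of 18 in complex V. In complex II, Sdhc alone was called, lower (-0.13, adjusted p 0.0284). B cell marker sums were 3.69 to 4.59 CPM in KO vehicle and 1.27 to 3.24 in KO LPS in replicates 1 to 5, and 10.1 and 4.85 in replicate 6. Neutrophil sums were 569.8 to 1115 and 425 to 743 CPM in replicates 1 to 5, lower with LPS in each pair, and 1155 and 1194 in replicate 6. Macrophage sums were 11548 to 17778 CPM in KO vehicle and 13963 to 19518 in KO LPS, higher with LPS in each pair. Lyz2, the most abundant of these markers, went the other way in each pair, at 7186 to 13212 and then 5913 to 11047 CPM. T cell sums, at 0.280 to 2.33 and 0.0559 to 2.30, were lower in each pair. They lie near the floor, with Cd3d alone kept by the filter, and replicate 6 was nearly level at 2.33 and 2.30. Dendritic cell sums were 1.43 to 2.99 and 1.15 to 2.16 in replicates 1 to 5, lower in each pair, and 1.04 and 1.53 in replicate 6. None of these differences was tested.

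Without replicate 6, mt-Cytb had a lowest, median and highest value of 1421, 1464 and 1549 CPM in KO vehicle and 998, 1032 and 1096 in KO LPS, with replicate 6 at 602 and 704. It fell without overlap (-0.51, SE 0.0503, adjusted p 7.38e-07). Atp5b was at 511, 536 and 578 CPM and then 813, 825 and 856 (replicate 6 at 829.6 and 1123), and rose (0.61, SE 0.0469, adjusted p 6.93e-08). Cox7a2l was at 168, 180.2 and 188 CPM and then 103, 107 and 128 (replicate 6 at 449 and 263), and fell (-0.70, SE 0.0609, adjusted p 2.12e-07). Ndufs4 (0.60, SE 0.0636, adjusted p 1.56e-06) and Ndufb11 (-0.58, SE 0.0688, adjusted p 5.06e-06) rose and fell, as in WT cells. mt-Co1 was at 5531, 5985 and 6659 CPM and then 5619, 5910.1 and 6471, with overlap (-0.02), and replicate 6 was at 1069.6 and 1735.

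Of the 34 members called in WT cells and the 51 called in KO cells without replicate 6, 33 were in both lists, 11 higher and 22 lower in each, and none in opposite directions. These are 97.1% of the WT list and 64.7% of the KO list, where 8405 genes overall made up 92.0% and 87.4% of theirs. The comparisons share no library. The interaction of genotype with LPS was called for 0 of 91 members and 0% of 15093 genes by edgeR, with 0 members at an unadjusted p under 0.05 and 0 by DESeq2, and for 0 members without replicate 6. Percentages called of all genes were 0 in both fits.

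**Figure D4:**
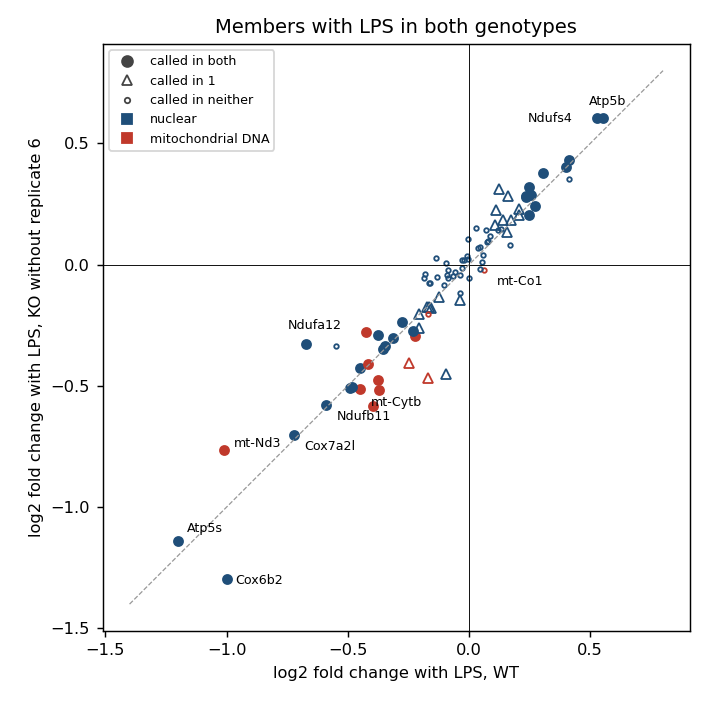
Log2 fold change with LPS in WT cells (horizontal) and in KO cells without replicate 6 (vertical) for each tested member, marked by whether it was called in both, in 1 or in neither. Members called in both lie at the lower left and upper right.

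CCM added to LPS gave 0 called members of 90 in WT cells (edgeR; 5 at an unadjusted p under 0.05; 0 by DESeq2; 0 adjusted over the list alone), where 11.9% of 13579 genes were called. The control libraries are those of the LPS comparison, so the results are not independent and no overlap between them is given. The nuclear median was -0.02, the mitochondrial one -0.01 and the all-gene one 0.01. Marker sums did not overlap between WT LPS and WT LPS+CCM for macrophages (18145 to 18801 and 19054 to 19196 CPM) and dendritic cells (1.28 to 1.65 and 0.714 to 1.20), a difference not tested. Ndufb11 was at 36.5, 36.1 and 36.1 CPM in WT LPS and 40.1, 41.5 and 39.4 in WT LPS+CCM without overlap (0.16, adjusted p 0.0965), and Atp5s at 1.89, 2.16 and 1.76 and then 2.56, 3.56 and 2.71 (0.60, adjusted p 0.112). With a replicate block (correlation 0.151 to 0.360) 5 of 90 were called, or 5.56% where 23.7% of all genes were called, and 0 adjusted over the list alone. They were Ndufb11 (0.16, adjusted p 0.0452), Ndufb8 (0.16, adjusted p 0.0352), Atp5a1 (-0.09, adjusted p 0.0333), Cox6c (-0.15, adjusted p 0.0344) and Ndufs8 (-0.18, adjusted p 0.0481), named after their values were seen.

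In KO cells CCM added to LPS gave 0 called of 90 (edgeR; 1 at an unadjusted p under 0.05; 0 by DESeq2), where 0.112% of 13386 genes were called. The nuclear median was 0.27, with 75 of 78 genes above 0, and without replicate 6 it was 0.39 (0 called, 13 at an unadjusted p under 0.05, with 1.27% of all genes called). Without replicates 2, 5 and 6, chosen after seeing the data, the median was -0.02 with 31 of 78 above 0 (0 called, 2 at an unadjusted p under 0.05, 0.488% of all genes called). Other protein-coding genes under 1000 bases had a median of 0.20 and those of the longest class -0.06 in the same comparison with all replicates. Nuclear members of these classes had 0.31 and 0.18. Mast cell and basophil marker sums were 10.4 to 19.3 CPM in KO LPS and 5.57 to 16.1 in KO LPS+CCM. Dendritic cell sums were 1.15 to 2.16 and 0.847 to 1.48. Both were lower with CCM in each pair, and sums of the other cell types went both ways. These differences were not tested. The interaction of genotype with CCM under LPS was called for 0 of 90 members and 0% of 14546 genes (edgeR; 0 at an unadjusted p under 0.05; DESeq2 0), also without replicate 6, where 1 member had an unadjusted p under 0.05.

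Without LPS, CCM gave 0 called of 91 in WT cells (edgeR; 13 at an unadjusted p under 0.05), where 0.0570% of 14024 genes were called. DESeq2 called 1, mt-Co3, whose edgeR value was -0.47 (adjusted p 0.122). The nuclear median was -0.13 with 6 of 79 genes above 0, and -0.05 without vehicle replicate 1. Between WT vehicle and WT CCM, marker sums did not overlap for mast cells and basophils (10.3 to 10.4 and 5.92 to 6.71 CPM) and dendritic cells (1.63 to 2.84 and 0.947 to 1.29), a difference not tested. In KO cells 0 of 91 were called (edgeR; 0 at an unadjusted p under 0.05; 0 by DESeq2), where 0% of 13799 genes were called, and the nuclear median was 0.02. Without replicate 6 the count was 0 (11 at an unadjusted p under 0.05, with 1.01% of all genes called) and the median -0.07. A replicate block (correlation 0.338 to 0.842) also gave 0 with all 6 replicates (8 at an unadjusted p under 0.05), where 3.11% of all genes were called. A block without the libraries numbered 6, added after seeing the data, called mt-Cytb and mt-Nd1, both lower, where 5.24% of all genes were called. The mitochondrial median in KO cells was -0.15, and -0.20 with the block of all 6 replicates. The interaction of LPS with CCM in WT cells was called for 0 of 91 members (edgeR; 7 at an unadjusted p under 0.05; 1 by DESeq2), where 2.09% of 14747 genes were called.

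KO and WT cells with vehicle differed in 0 of 91 members by edgeR (0 at an unadjusted p under 0.05; 0 by DESeq2), where 0% of 14385 genes were called. The nuclear median was 0.32 with 77 of 79 genes above 0, and without replicate 6 it was -0.05 with 12 of 79 above 0 (0 called, 1 at an unadjusted p under 0.05, 0% of 14313 genes). The mitochondrial median was -0.06, and 0.08 without replicate 6. Macrophage marker sums, led by Lyz2, were 16485 to 18754 CPM in WT vehicle and 11548 to 13875 in KO vehicle, apart from replicate 2 at 17778. Lyz2, which carries the Cre insertion in KO cells, was itself at 12021 to 13998 CPM in WT vehicle. In KO vehicle it was at 7186 to 9813, apart from replicate 2 at 13212, and sums without Lyz2 are not given. Neutrophil sums were 647 to 699.9 and 569.8 to 1155 CPM, with overlap, and these differences were not tested. The vehicle libraries also serve as controls of the LPS comparisons.

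Nmes1, annotated as AA467197, codes for a small protein that replaces NDUFA4 in complex IV during inflammation. AA467197 was at 0.808, 1.06 and 1.40 CPM in WT vehicle and 242, 229 and 239.6 in WT LPS, and rose in 3 of 3 pairs without overlap (7.73, SE 0.126, adjusted p 3.32e-11). In KO cells without replicate 6 its lowest, median and highest values were 1.16, 1.43 and 2.31 and then 204, 229.5 and 252, and it rose (7.13, SE 0.128, adjusted p 8.77e-14), as it did with all 6 replicates (7.42, SE 0.290, adjusted p 3.39e-10). With CCM added it was at 177, 165 and 189 CPM in WT cells, and fell in 3 of 3 pairs without overlap (-0.42, SE 0.0559, adjusted p 0.000898), a call lost in the single fit of all 36 libraries. In KO cells with all 6 replicates that value was -0.08 (SE 0.263, adjusted p 0.938), higher in 2 of 6 pairs and with overlap. It is not given here without the KO replicates set apart above. The KO value therefore does not show that the fall was limited to WT cells. Without LPS, the value with CCM was 0.24 in WT (adjusted p 0.828). Ndufa4 itself was at 95.9, 88.9 and 82.3 CPM in WT vehicle and 73.0, 84.4 and 79.6 in WT LPS, with overlap (-0.17, adjusted p 0.0810).

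**Figure D5:**
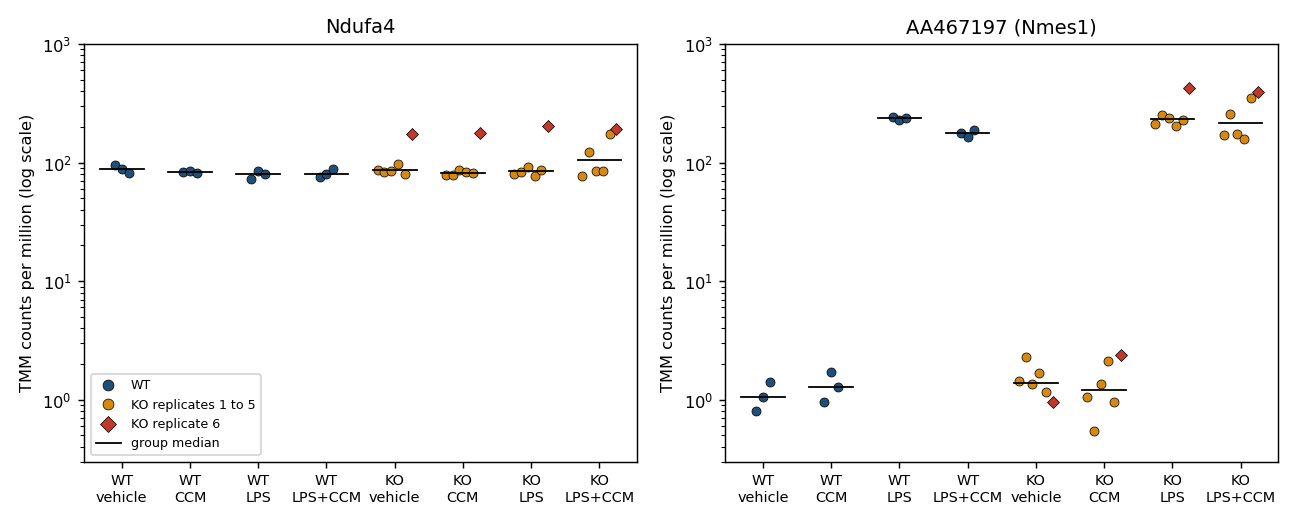
CPM of Ndufa4 and of AA467197 (Nmes1) in each library on a log scale. AA467197 separates libraries with LPS from those without in both genotypes, and Ndufa4 does not.

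Genes that assemble and feed the chain were called with LPS in both directions. In WT cells, where 63.0% of all genes were called, 2 of 16 complex I assembly factors were higher and 4 lower (37.5%), led by Ndufaf7 at -1.54 (SE 0.184, adjusted p 4.30e-05), and of 36 assembly factors for complexes II to V 8 were higher and 8 lower (44.4%). Among the latter, Coa5, which serves complex IV, went from a mean of 105 to 415 CPM (1.98, SE 0.0641, adjusted p 2.22e-09), and Cox18 and Sco1 rose (1.51 and 1.13), while Cmc2, Bcs1l and Atpaf1 fell (-1.21, -0.80 and -0.61). Of 18 electron carrier and coenzyme Q genes 6 were higher and 5 lower (61.1%). Gpd2, the mitochondrial glycerol-3-phosphate dehydrogenase, went from a mean of 24.0 to 189 CPM (2.98, SE 0.0960, adjusted p 2.17e-09), and Cycs, cytochrome c, from 49.1 to 147 (1.59, SE 0.0641, adjusted p 1.12e-08). Coq10a, a coenzyme Q binding protein, went from 24.3 to 8.41 CPM (-1.52, SE 0.103, adjusted p 5.87e-07). All of the genes named here moved in 3 of 3 pairs without overlap. In KO cells with all 6 replicates (47.1% of all genes called) the counts were 1 higher and 4 lower of 16, 6 and 3 of 35, and 5 and 5 of 18, and without replicate 6 (69.4%) they were 3 and 7, 10 and 12, and 6 and 7.

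The remaining lists were read in the same way with LPS in WT cells, beside the same 63.0% of all genes. Of 27 genes for transcription of mitochondrial DNA and handling of its RNA, 10 were higher and 6 lower (59.3%), with Pnpt1, which codes for a mitochondrial exoribonuclease, at 1.96 (SE 0.0702, adjusted p 4.68e-09) and the helicase gene Twnk at -0.90 (SE 0.158, adjusted p 0.000631). Of 8 nuclear regulators 3 were higher and 1 lower (50%), with Esrra, which codes for ERR alpha, at 1.51 (SE 0.0565, adjusted p 6.64e-09), Gabpb1 at 0.87, Pprc1 at 0.58 and Gabpb2 at -0.22, the last a call lost in 6 of 13 other settings, DESeq2 among them. Of 14 genes of the tricarboxylic acid cycle 6 were higher and 5 lower (78.6%), with Dld at 0.81, Cs at 0.68, Suclg2 at -1.63, Idh2 at -1.22 and Idh3g at -0.71. Of 77 mitochondrial ribosome genes 26 were higher and 14 lower (51.9%), with Mrpl52 at 1.28 and Mrpl42 at -0.97. Of 8 chain modulators 3 were higher and 3 lower, with AA467197, Vdac3 (0.97) and Vdac2 (0.37) up and Ucp2 (-0.89), Atpif1 (-0.45) and Slc25a5 (-0.21) down. With library totals Vdac2 turned to -0.043 and the Pprc1 call was lost, and Slc25a5 lost its call in 3 of 13 other settings. In the single fit of all 36 libraries Cmc2, Atpaf1, Mrpl52, Vdac2 and Atpif1 were not called. In KO cells without replicate 6 (69.4% of all genes called) the counts in this order were 11 and 7, 3 and 1, 6 and 6, 29 and 18, and 3 and 5. With all 6 replicates (47.1% of all genes called) they were 7 and 5, 3 and 0, 4 and 3, 7 and 2, and 3 and 1. Adjusted over the list alone, the WT totals of all 8 lists were 6, 16, 11, 16, 4, 11, 40 and 7, in the order given.

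CCM added to LPS in WT cells, against the same LPS libraries, gave calls in 6 of these 8 lists, where 11.9% of all genes were called. Coa5 went from a mean of 415 to 330.3 CPM (-0.33, SE 0.0409, adjusted p 0.000594), Pnpt1 from 95.3 to 66.0 (-0.53, SE 0.0589, adjusted p 0.000291) and Cycs from 147 to 118 (-0.32, SE 0.0475, adjusted p 0.00169), each lower in 3 of 3 pairs without overlap. Pdss1 (-0.53), Coq10b (-0.27), Sco1 (-0.25), Dld (-0.19) and Vdac2 (-0.19) also fell, and Mrpl49 (0.41), Mrpl34 (0.31) and Mrpl38 (0.28) rose. Of 13 other settings, the call was lost in 10 for Sco1, 7 for Pdss1, Mrpl49 and Mrpl34, 6 for Dld, 3 for Vdac2, and 2 for Coq10b and Mrpl38. Coa5, Pnpt1 and Cycs lost it in 1, the single fit of all 36 libraries. The counts were 2 of 35 lower for assembly of complexes II to V, 3 of 18 for carriers and coenzyme Q, 1 of 27 for mitochondrial RNA, 1 of 14 for the tricarboxylic acid cycle and 2 of 8 for modulators, and 3 of 77 higher for the mitochondrial ribosome. Adjusted over the list alone they were 1, 3, 1, 1, 2 and 0. For complex I assembly 0 of 16 and for regulators 0 of 8 were called by edgeR, with 2 of each at an unadjusted p under 0.05 and 0 adjusted over the list alone.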

How the data were processed

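Gene expression was measured by paired-end sequencing of poly(A) RNA from 36 macrophage cultures. Per the labels, the authors trimmed reads with fastp (version not given), aligned them to mm10 with HISAT2 2.0.5 and counted reads per gene with featureCounts 1.5.0-p3, and the strand setting was not stated. The deposited values are raw counts per gene, and the deposited gene length is in bases. No raw reads were used. Library totals were 13469262 to 28288923 counts.

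Counts were analysed in R 4.3.3 with edgeR 4.0.16 (filterByExpr with a minimum count of 10 and total of 15, TMM scaling, quasi-likelihood tests, Benjamini-Hochberg adjustment over all genes tested). A gene was called at an adjusted p of at most 0.05. DESeq2 1.42.0 and limma 3.58.1 served for alternatives and for replicate correlations. CPM are counts per megacount after TMM scaling, log2 levels used a prior count of 2, and levels of different genes were compared only per kilobase. Each of 7 pairwise comparisons was fitted on its own groups, and 3 interactions were fitted on the libraries of the crossed factors. Pairs share a replicate number, which was checked as a pairing: correlations in log2 levels of mates were 0.299 to 0.829 (KO cells, LPS), 0.151 to 0.360 (WT cells, CCM added to LPS) and 0.338 to 0.842 (KO cells, CCM alone). In the other 3 comparisons within a genotype some were below 0.1, so a block is given there only among the alternatives, and pairs counted there are libraries with the same replicate number. Between replicates of a group, chi-square per degree of freedom was at least 4.33, so spread exceeded counting error. The fits were also run on simulated data, for which no values are given here.

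Members and lists were fixed before the counts were read, chosen with earlier results of these data known. The lists held 17 complex I assembly factors (16 in the table), 38 for complexes II to V, 18 carrier and coenzyme Q genes, 27 for mitochondrial DNA and RNA, 9 regulators, 14 of the tricarboxylic acid cycle, 78 of the mitochondrial ribosome and 8 modulators, besides markers of 8 cell types. Lists were described by counts and medians and not tested as sets. Named genes were the 13 mitochondrial genes, the 4 Sdh genes, up to 6 called members each way per comparison, the tissue-restricted isoforms with their partners, the most abundant nuclear member of each complex, AA467197, and up to 3 called genes each way per outside list and comparison. Shared sequence was read in windows of 50 bases, and promoters were windows of 300 bases. No column was left out.

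Alternatives were DESeq2, RLE size factors, library totals, scaling without mitochondrial genes, all genes with at least 1 count, a replicate block, all 36 libraries in 1 fit, and each replicate left out in turn. Added after seeing the data were fits without KO replicates 2 and 6, without 2, 5 and 6, and with a block and no replicate 6.

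Transcript levels do not give protein levels, complex assembly or respiration. Scaled counts are relative to the other genes of a library, so a change in RNA per cell is not seen. Mitochondrial genes with nuclear copies are counted from the reads that could be assigned. WT groups of 3 leave small changes undetected, and KO groups include replicate 6, which stood apart. Whether KO replicate 2 lacks Bmal1 was not checked at the level of exons.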

Additional observations from a re-analysis of the deposited data

Results flagged for a closer look

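In each KO condition, 7 quantities were read in its 6 libraries (the share of counts on mitochondrial members, the summed mitochondrial CPM and the summed nuclear CPM of each of the 5 complexes), giving 28 groups of 6. In 22 of them the gap between the outermost library and the nearest other one, over the whole range, passed Dixon's critical value for 6 values at 95% confidence, and in all 22 that library was KO replicate 6. Chance flags about 1 in 20 groups taken singly. The 28 groups are not independent, since some quantities share genes and the same replicate numbers recur in each condition. In KO vehicle replicate 6 the mitochondrial share was 0.327% (others 1.34 to 1.48), and summed CPM was 4240 for nuclear complex I (1400 to 1660), 629 for complex II (496 to 523), 1560 for complex III (547 to 647), 4050 for complex IV (1370 to 1620), 4690 for complex V (2100 to 2390) and 3540 for mitochondrial genes (11300 to 12800). In KO CCM replicate 6 the share was 0.195% (1.32 to 1.42), and the sums in the same order were 4950 (1350 to 1490), 623 (479 to 514), 1840 (541 to 583), 4460 (1350 to 1490), 5110 (2020 to 2130) and 2170 (11200 to 11900) CPM. In KO LPS replicate 6 the share was 0.352% (0.883 to 0.929), and the sums were 3820 (1390 to 1470), 651 (489 to 513), 1550 (620 to 670), 4200 (1460 to 1570), 5000 (2580 to 2700) and 4700 (9750 to 10800) CPM. In KO LPS+CCM replicate 6 the mitochondrial sum was 3170 CPM (7850 to 10400). These values are rounded to 3 digits. The cause was not tested.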

How the results depend on the processing

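Of 143 counts of called members under other settings, 126 were within 1.5 times the count reported, 2 were lower and 15 higher. With library totals in place of TMM, LPS in WT gave 81 called (1 higher, 80 lower; 73.2% of all genes called), LPS in KO 23 (0 higher; 55.1%), CCM under LPS in WT 5 (16.7%) and LPS by CCM in WT 1 (2.35%). The nuclear and mitochondrial medians then were -0.44 and -0.78 for LPS in WT and -0.38 and -0.76 for LPS in KO, as the all-gene medians went from -0.05 to -0.46 and -0.44, and the nuclear median for CCM under LPS in WT was 0.057 (all genes from 0.01 to 0.09). All 36 libraries in 1 fit gave 3 for LPS in WT (35.9%). A replicate block gave 51 for LPS in KO (71.6%), 5 for CCM under LPS in WT (23.7%) and, where mates correlated at only 0.0512 to 0.465, 2 for CCM in unstimulated WT (1.82%; mt-Co2 and mt-Co3, both lower). Genes with at least 1 count gave the same 2 there (1.47%) and 1 for LPS by CCM in WT (2.59%), and DESeq2 gave 1 in each of these comparisons (1.72% and 4.67%). Among settings added after seeing the data, LPS in KO gave 43 without KO replicates 2 and 6 (64.8%) and 54 with a block without the libraries numbered 6 (72.4%), and that block gave 2 for CCM in unstimulated KO (5.24%; mt-Cytb and mt-Nd1, both lower). Leaving out each replicate in turn, counts were 26 (without WT vehicle replicate 2; 57.3% of all genes called) to 44 (without WT vehicle replicate 1; 60.6%) for LPS in WT, 3 (without KO replicate 2; 40.0%) to 51 (without KO replicate 6; 69.4%) for LPS in KO, and 0 to 0 elsewhere. Nuclear medians then ranged from -0.08 to 0.07 for LPS in WT, -0.01 to 0.01 for LPS in KO, -0.04 to -0.01 for CCM under LPS in WT, 0.12 to 0.39 for CCM under LPS in KO, -0.16 to -0.05 for CCM alone in WT and -0.07 to 0.07 for CCM alone in KO. Mitochondrial medians ranged in that order from -0.39 to -0.33, -0.44 to -0.31, -0.04 to 0.02, -0.12 to 0.03, -0.06 to 0.01 and -0.17 to -0.12. Of 122 medians under other settings, 5 moved by more than the spread between replicates, and the 9 shares of counts did not. Of 4435 values for named genes, 165 lost a call, 87 gained one and 15 were counted as changed in sign, and 59 of 122 calls were kept under every setting run. That count leaves out other turns in sign among genes that were not called. Without KO replicate 6, nuclear members above 0 went from 77 to 12 of 79 for KO against WT with vehicle. For CCM alone in KO they went from 53 to 10 of 79. The 15 sign changes counted came with library totals: in LPS in WT mt-Co1 -0.35, Sdhd -0.36, Cox6b1 -0.24, Cox7a2 -0.10, Cox8a -0.33, Ndufa2 -0.36, Uqcrc2 -0.010, Atp5a1 -0.14, Foxred1 -0.048, Ogdh -0.10 and Vdac2 -0.043, and in LPS in KO Sdhd -0.32, Foxred1 -0.053, Ogdh -0.10 and Vdac2 -0.021. Apart from the shift in scale that library totals bring, the cause was not tested. Depth limits the low genes: mt-Atp8, Cox4i2, Cox8b and Ndufa4l2 had 147, 152, 40.0 and 136 counts over all libraries.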
